A study of Argyrosomus regius with 12 samples.

Results

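The 200 spleen genes described here were those whose share of the sequenced RNA varied least among 12 libraries of young meagre, the marine fish Argyrosomus regius. Counts were summed over the isoforms of each gene of the assembly and scaled to the library total, in CPM, the usual per-library unit of sequencing counts. Of 42480 assembled genes, 3180 had a mean CPM of at least 50, and the 200 of them with the lowest SD of log2(CPM + 0.5) over the 12 libraries were taken. The SD of a gene over these libraries is therefore the value that chose the members, and it is given as a description with no test. The genes carry the names of a Trinity assembly, a reconstruction of transcripts from the reads themselves. The files do not pair these names with gene names, so roles, protein products and sequences of the members are not given.

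All fish weighed 22 g and were kept at 22 °C. They received either phosphate-buffered saline (PBS) or 10 µg per g of lipopolysaccharide (LPS) of Photobacterium damselae subsp. piscicida, a fish pathogen, into the body cavity. Spleens were taken at 4 h or 24 h, which gave 4 groups, namely PBS 4 h, LPS 4 h, PBS 24 h and LPS 24 h. Each group had 3 pools of 4 fish and 1 library per pool, so n = 3 per group counts pools of separate animals. No untreated or uninjected fish are among the groups, so injection itself is shared by all of them.

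The spleen is a main site where bony fish filter blood and mount immune responses, and it holds red cells, macrophages, lymphocytes and stromal cells. LPS is the surface glycolipid of Gram-negative bacteria, and it sets off a broad inflammatory transcriptional response. Such a response matters for measurement itself, because a few strongly induced genes can take up much of a library and lower the share left for every other gene. Quantitative PCR is usually scaled by reference genes that are assumed to stay level, and RNA-seq libraries are scaled by totals or by a large set of genes assumed to stay level on balance. Genes that vary little under a treatment bear on both kinds of scaling.

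Library totals ran from 29614365 to 56556752 counts, and every member was counted in every library, with at least 1375 counts. The labelled tissue could not be checked against marker genes, because no identifier has a gene name. One library stood apart within its group. Over the 3180 genes, the log2 ratios between replicate 2 of LPS 4 h and the other pools of that group had SDs of 0.99 and 1.09, while those other pools differed from each other with an SD of 0.59. The library nearest to replicate 2 was LPS 24 h replicate 1, with an SD of 0.42. From the 3 PBS 4 h pools it differed with SDs of 0.48, 0.66 and 0.48, so it was nearer to them than to its own group. A weak response of these fish and a mixed or mislabelled pool cannot be told apart in these files, and every LPS 4 h mean and test below holds this pool unless stated otherwise.

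The members' spread was narrow, and it was still wider than counting error. Their SDs ran from 0.074 to 0.186 with a median of 0.153, against a median of 0.382 over the 3180 genes. The SD that counting error alone would give had a median of 0.025 among the members, and a member's SD was 3.06 to 57.2 times that value, with a median of 5.79 times. At the lowest ratio, that of TRINITY_DN1461_c0_g1, the counting SD was 0.024 against a total SD of 0.074. The ratio of a member's highest to its lowest library ran from 1.19 to 1.71 with a median of 1.42. It stayed below 1.5 in 156 members (78%) and in 5.22% of the 3180 genes, and it reached 2 in 0 members and in 71.2% of the 3180. In a bulk tissue, fewer cells of a type and less RNA per cell cannot be told apart, and a level share does not show a level number of molecules per spleen.

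**Figure D1:**
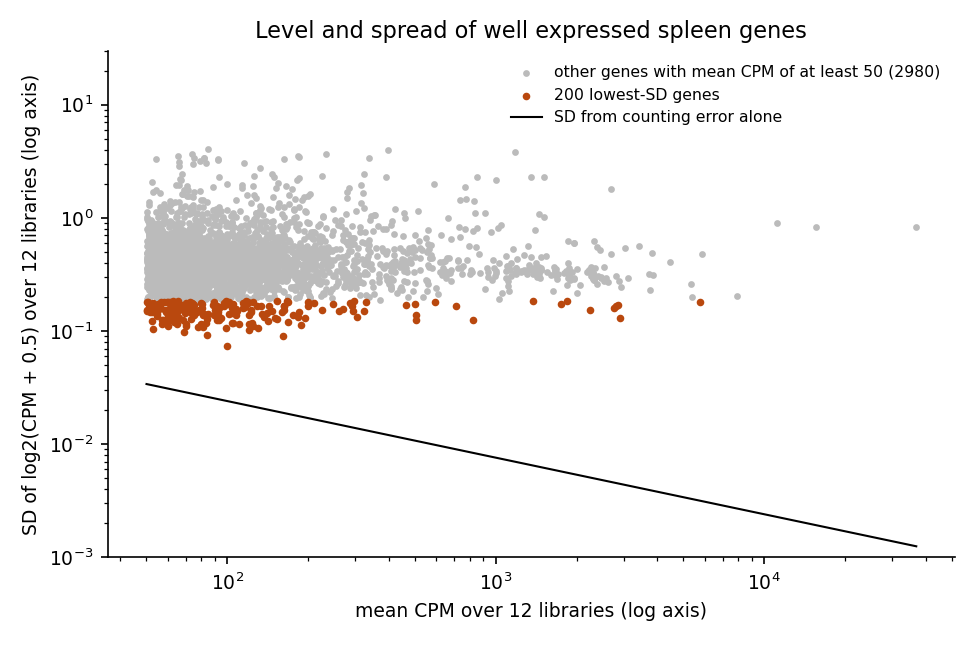
Each point is 1 of 3180 genes, with its mean CPM over 12 libraries on the horizontal log axis and the SD of log2(CPM + 0.5) on the vertical log axis, and the line is the SD from counting error alone. The 200 members (orange) lie along the lower edge of the cloud at SDs of at most 0.186, from 50.1 to 5759 CPM, and above the counting line.

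The members' counts were spread much like those of the other genes. Their mean CPM ran from 50.1 to 5759, with a median of 89.3 against 88.9 over the 3180 genes. A mean CPM of at least 1000 was found in 9 members (4.5%) and in 4.50% of the 3180 genes. CPM is not divided by transcript length, so these values describe how many counts a gene gave and not how its RNA level compares with that of another gene. Together the members took 4.42% to 5.06% of each library. The single most counted gene of the assembly, which was no member, took from 1.32% to 9.48% of a library, and the highest share was in PBS 24 h replicate 3.

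The gene with the lowest SD was TRINITY_DN1461_c0_g1, with an SD of 0.074 and a mean of 99.8 CPM. It had 100.8, 99.2 and 98.9 CPM in the PBS 4 h pools and 96.0, 102.2 and 95.9 in the LPS 4 h pools. It had 99.6, 99.1 and 108.0 CPM in the PBS 24 h pools and 100.6, 89.0 and 107.8 in the LPS 24 h pools. The groups overlapped at both times, and both the lowest and the second highest pool were LPS 24 h pools. Only 9.93% of its variance lay between the 4 groups. Scatter among pools alone also puts some of a gene's variance between groups. This share and those below are therefore not the part due to treatment or time.

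TRINITY_DN9504_c0_g1, the next in rank with an SD of 0.091, had 173, 148 and 155 CPM in the PBS 4 h pools and 158, 157 and 150 in the LPS 4 h pools. It had 174, 154 and 157 CPM in the PBS 24 h pools and 164, 182 and 159 in the LPS 24 h pools. Again the groups overlapped at both times. TRINITY_DN3265_c0_g1, with an SD of 0.093, had 90.8, 78.9 and 81.8 CPM at PBS 4 h and 90.01, 89.0 and 87.6 at LPS 4 h. It had 77.1, 82.4 and 80.3 CPM at PBS 24 h and 80.7, 76.4 and 90.2 at LPS 24 h. At 4 h its LPS pools lay inside the range of the PBS pools, and at 24 h they reached beyond that range on both sides.

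TRINITY_DN373_c0_g1, with an SD of 0.098 and 12 isoforms, had lower CPM with LPS at both times, by small steps. It had 72.7, 68.3 and 66.3 CPM at PBS 4 h against 66.2, 64.5 and 62.4 at LPS 4 h. It had 74.1, 73.7 and 77.0 CPM at PBS 24 h against 63.8, 66.9 and 72.1 at LPS 24 h. On the CPM scale every LPS pool was below every PBS pool of its time, and 70.8% of the variance lay between groups. At 4 h this order rested on 66.22 CPM in LPS replicate 1 against 66.25 in PBS replicate 3. That gap is far below the gene's counting SD of 0.029 (log2), so the order at 4 h is not resolved. The steps were small, from 69.1 ± 3.32 to 64.4 ± 1.91 CPM at 4 h and from 74.9 ± 1.78 to 67.6 ± 4.17 CPM at 24 h (mean ± SD, n = 3). With libraries scaled by TMM (the trimmed mean of M-values, a factor from the log ratios of most genes), its fitted LPS change was 0.09 ± 0.16 (log2 ± SE) at 4 h and -0.14 ± 0.16 at 24 h. The sign at 4 h was therefore the opposite of the one on CPM.

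TRINITY_DN31264_c0_g1, with an SD of 0.102, had 129, 124 and 114 CPM at PBS 4 h and 139, 127 and 124 at LPS 4 h. It had 110, 122 and 116 CPM at PBS 24 h and 110, 112 and 117 at LPS 24 h. Its highest pool was a 4 h LPS pool and its lowest were 24 h pools of both treatments, with overlap between PBS and LPS at each time.

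**Figure D2:**
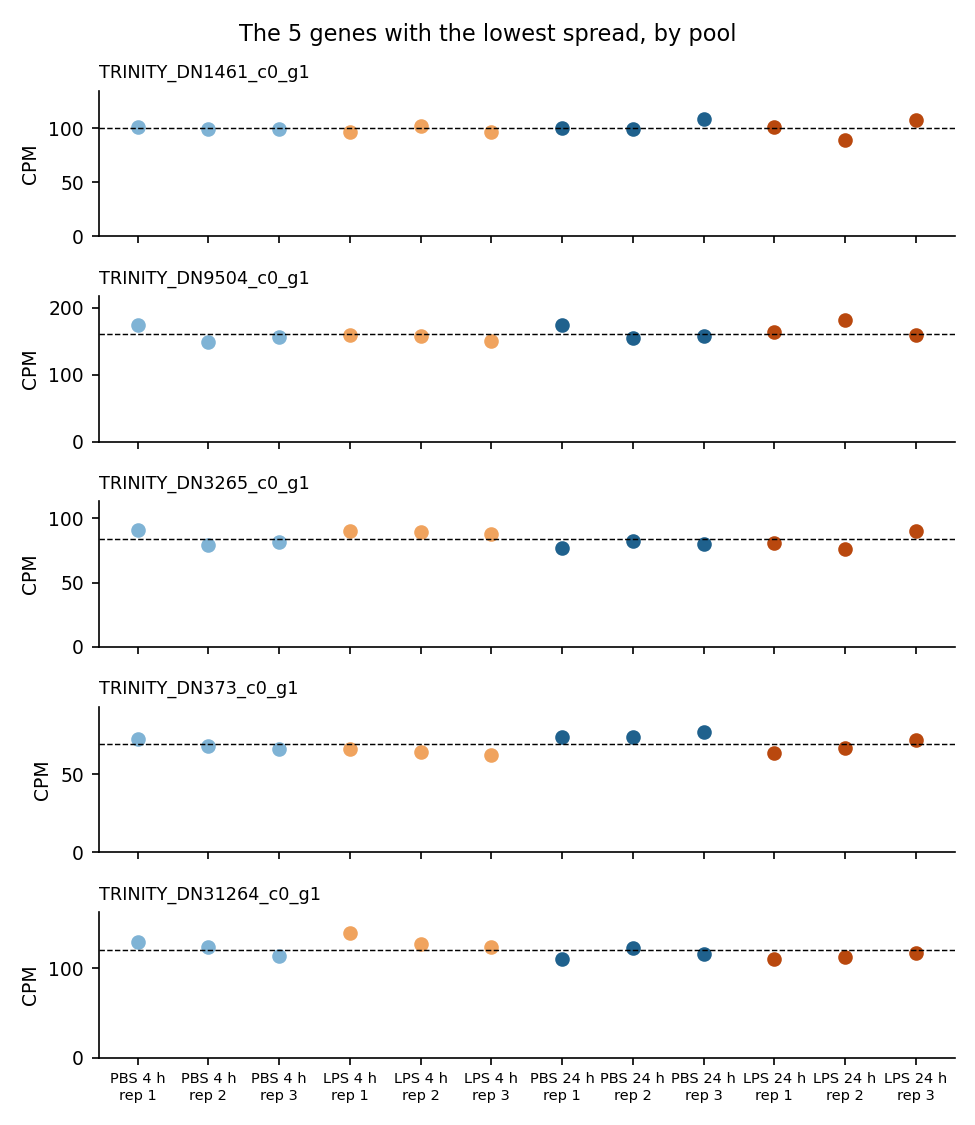
CPM of the 5 lowest-SD genes in each of the 12 pools, with PBS pools in blue and LPS pools in orange, pale at 4 h and dark at 24 h, on axes that start at 0, and a dashed line at each gene's mean. No pool departs far from the line, and in the panel of TRINITY_DN373_c0_g1 the LPS pools lie below the PBS pools of the same time, at 4 h by a very small margin.

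The members with the most and the fewest counts showed the same kind of spread. TRINITY_DN6280_c0_g1, at rank 188, had the highest mean, 5759 CPM, and ran from 4762 to 6821 CPM. Its group means were 6100 ± 803 CPM at PBS 4 h and 5395 ± 878 at LPS 4 h. They were 5419 ± 593 at PBS 24 h and 6121 ± 557 at LPS 24 h. The differences were within about 1 SD of the pools at 4 h and slightly above it at 24 h, in opposite directions. TRINITY_DN764_c0_g1, at rank 48, had a mean of 2896 CPM and group means of 3012 ± 283, 2680 ± 153, 2987 ± 430 and 2906 ± 118 CPM in the order PBS 4 h, LPS 4 h, PBS 24 h and LPS 24 h. At the low end, TRINITY_DN2322_c0_g1 had group means of 46.4 ± 4.12, 54.1 ± 2.44, 51.2 ± 8.79 and 48.6 ± 3.22 CPM in the same order.

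At the threshold the values ran on without a gap. The last 2 genes inside it, TRINITY_DN395_c0_g2 and TRINITY_DN3343_c0_g1, had SDs of 0.1860 and 0.1863. The next 2, TRINITY_DN1623_c2_g1 and TRINITY_DN18026_c0_g1, had SDs of 0.1864 and 0.1869 and were left out. TRINITY_DN3343_c0_g1, at rank 200, had 141, 170 and 211 CPM in the PBS 4 h pools, the widest range of any member at 1.71 times over all pools, while its LPS 4 h pools had 124, 157 and 144 CPM. The number 200 marks no natural border of stability.

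Whether low spread carries over to samples that played no part in the choice was read by leaving out each library in turn, choosing 200 genes from the other 11 by the same rule, and measuring the left-out library against the mean of the 11. The median absolute difference of the chosen genes was 0.078 to 0.19 (log2) per library, with a median over libraries of 0.16. Over all genes that passed the level minimum it was 0.16 to 0.49, with a median of 0.29. The chosen genes were the tighter set in 12 of 12 left-out libraries. The gap was widest in the 2 libraries whose other genes had moved most. In LPS 4 h replicate 1 the chosen genes differed by 0.17 and all genes by 0.49, and in LPS 4 h replicate 3 the values were 0.19 and 0.46. In LPS 4 h replicate 2 they were 0.078 and 0.16, the lowest of all libraries on both counts. When LPS 4 h replicate 1 or 3 was left out, the other of these stayed among the 11 libraries of the choice. Genes that had changed alike in both were thus already less likely to be chosen. The wide gaps there follow in part from this, and how far was not tested. Without LPS 4 h replicate 2 anywhere, the median over 11 libraries was 0.16 for the chosen genes and 0.29 for all. Since the 12 choices share most of their libraries, the count of 12 carries no p-value.

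**Figure D3:**
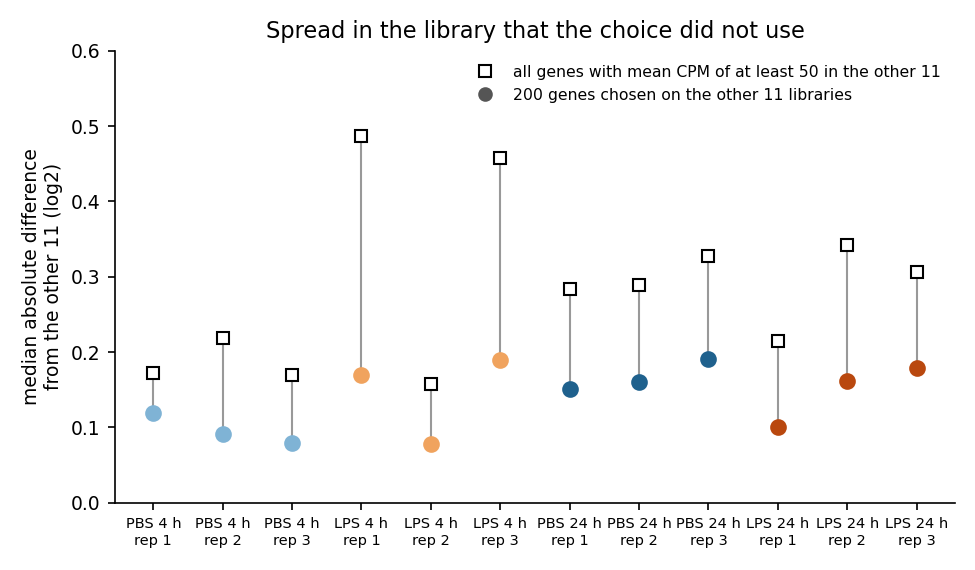
Median absolute log2 difference of each left-out library from the mean of the other 11, for the 200 genes chosen on those 11 (filled circles, coloured by group) and for all genes that passed the level minimum (open squares). Every circle lies below its square, and the gap is widest in LPS 4 h replicates 1 and 3. The other pools of the left-out library's group took part in each choice.

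The treatment could be left out of the choice as well. The 200 genes of lowest SD among the 6 PBS libraries had a median SD of 0.11 there and 0.25 among the 6 LPS libraries, against 0.39 for all 3139 genes that passed the minimum in PBS. Of these 200, 74.5% were below the median of all genes in the LPS libraries, and 80 were among the members. Their mean shift from PBS to LPS had a median size of 0.14 (log2), against 0.26 for all. The reverse choice, on the 6 LPS libraries, gave a median SD of 0.17 in the PBS libraries against 0.27, and 116 of the 200 were members. Low spread in control fish thus carried over in part, and the SD in LPS libraries was more than 2 times the SD on which these genes had been chosen. Genes chosen for a low SD are likely to have a higher one in other libraries. All 3139 genes also had a higher median SD in LPS libraries, 0.39 against 0.26 in PBS libraries. How much of the rise is due to each was not tested.

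For the use as reference genes, the size of the set changed how far a left-out library could be off. The single lowest-SD gene of the other 11 libraries had a median absolute difference of 0.05 (log2) and a highest one of 0.28. The mean of the 3 lowest gave 0.07 and 0.25, and that of the 5 lowest 0.12 and 0.28. The mean of the 10 lowest gave 0.10 and 0.18, that of 50 gave 0.06 and 0.13, and that of 200 gave 0.09 and 0.14. The highest difference for 1, 3 and 5 genes came from 1 library of control fish, PBS 24 h replicate 2. TRINITY_DN1461_c0_g1 was the lowest-SD gene in 11 of the 12 choices and TRINITY_DN9589_c0_g1 in the one without PBS 24 h replicate 2. These values are read on CPM, so they treat the library total as the true scale. On TMM-scaled CPM, with genes chosen on that scale, the single gene gave 0.12 and 0.30, the 3 lowest 0.10 and 0.23, the 10 lowest 0.02 and 0.11 and the 200 lowest 0.04 and 0.07. The single gene was there the worse choice by the median as well, and its highest difference was in LPS 4 h replicate 3. The ratio between 2 genes in a library is free of that scale. For the 10 pairs among the 5 lowest-SD members, the SD of the log2 ratio over the 12 libraries was 0.075 to 0.159. The rule had chosen these genes for a low SD on the same libraries. Small pair SDs therefore follow from the choice, and these values are a description only.

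The members also differed in how their small spread fell on the design. Variance between group means made up a median of 34.3% of a member's variance, against 51.5% over the 3180 genes. It exceeded 50% in 50 members (25%) and in 52.1% of the 3180. With 3 pools per group, pool scatter alone gives such a share well above 0, and the shares are not corrected for it. The LPS minus PBS difference of mean log2 CPM ran from -0.32 to 0.24 at 4 h, with a median of -0.02, and from -0.33 to 0.38 at 24 h, with a median of 0.05. Its median size was 0.09 at 4 h and 0.12 at 24 h, against 0.30 and 0.33 over the 3180 genes. At 4 h the LPS and PBS pools did not overlap in 25 members, 11 with LPS higher and 14 with LPS lower, where the background over the 3180 genes was 19.7%, with 9.75% higher and 9.91% lower. At 24 h they did not overlap in 49 members, 29 higher and 20 lower, where the background was 38.7%, with 27.2% higher and 11.5% lower. Because the rule chose genes of small SD on the same libraries, nothing is read from members lying below the background. Without overlap at both times, 8 members (4%) had the same direction and 3 (1.5%) had opposite directions, against 8.46% and 0.943% of the 3180 genes, and nothing is read from these shares either.

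In the test over all genes, 0 of the 200 members were called at either time, and the rule had used these same libraries, so this count describes the choice. By edgeR's quasi-likelihood test with Benjamini-Hochberg adjustment over 32542 genes, LPS differed from PBS in 1 gene at 4 h (0.00307%) and in 1059 genes at 24 h (3.25%), and any difference among the 4 groups was called in 2888 (8.87%). The count at 24 h moved with single pools. It was 527, 29 and 307 without PBS 24 h replicates 1, 2 and 3, 316 and 169 without LPS 24 h replicates 2 and 3, 670 without PBS 4 h replicate 3 and 2059 without LPS 4 h replicate 2. The count for any difference ran from 899 without LPS 4 h replicate 1 to 9995 without LPS 4 h replicate 2. The number of members called at 24 h was 0 in each of the 12 fits that left out a pool. The lowest adjusted p of a member was 0.172 at 4 h, 0.214 at 24 h and 0.195 for any difference. At an unadjusted p below 0.05 there were 12 members at 4 h, 2 at 24 h and 0 for any difference, and all 12 and both others had positive fitted changes. With library totals alone there were 0 at 4 h and 4 at 24 h, so these counts depend on the scaling. Nothing is read from them, since the rule had used these libraries and no background share stands beside them. DESeq2 called 1 member at 4 h, where it called 7.13% of all genes, 0 at 24 h, where it called 8.35%, and 1 for any difference, where it called 21.7%. In the edgeR fit a change of the LPS effect from 4 h to 24 h was called in 5 genes (0.0154%), of which 0 were members. There 5 members had an unadjusted p below 0.05 for it, and nothing is read from that count either.

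The members that the fit placed at the ends had small differences, and none passed the test. The rule had chosen genes of small SD on these same libraries, so both facts describe the choice. The p-values below are given as a description only. At 4 h the most positive fitted change was that of TRINITY_DN854_c0_g1. It had 2352, 1883 and 2176 CPM in the PBS 4 h pools and 2444, 2286 and 2849 in the LPS 4 h pools, with 1 PBS pool inside the LPS range. Its fitted log2 change was 0.46 ± 0.23 (SE) with an adjusted p of 0.300 by edgeR's quasi-likelihood test. That change was 0.28 without LPS 4 h replicate 3 and 0.61 without LPS 4 h replicate 2. The most negative was TRINITY_DN12117_c0_g1, with 80.0, 65.5 and 72.5 CPM in the PBS 4 h pools and 55.6, 65.3 and 53.8 in the LPS 4 h pools. At 24 h that gene had 68.7, 70.2 and 66.5 CPM with PBS and 58.1, 62.1 and 59.2 with LPS. On CPM all 6 LPS pools were below all 6 PBS pools, at 4 h by 65.32 in LPS replicate 2 against 65.54 in PBS replicate 2. That gap is below the gene's counting SD of 0.030 (log2), so the order at 4 h is not resolved. Its fitted changes of -0.13 ± 0.16 at 4 h and -0.18 ± 0.16 at 24 h had adjusted p-values of 0.694 and 0.584 in the edgeR fit. The change at 4 h was -0.06 without PBS 4 h replicate 1 and -0.20 without PBS 4 h replicate 2. These ends depend on the scaling. The members' fitted changes at 4 h ran from -0.13 to 0.46 with TMM and from -0.32 to 0.24 with library totals alone.

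At 24 h the most positive was TRINITY_DN23967_c0_g1, with 48.0, 43.4 and 45.2 CPM in the PBS pools and 54.8, 63.6 and 59.9 in the LPS pools. The groups did not overlap, and the fitted change was 0.40 ± 0.18 with an adjusted p of 0.259 in the edgeR fit. At 4 h the same gene had 48.6, 43.2 and 47.6 CPM with PBS and 44.8, 54.1 and 50.3 with LPS, where the groups overlapped. The most negative at 24 h was TRINITY_DN5393_c0_g1, with 154, 170 and 137 CPM in the PBS pools and 122, 127 and 117 in the LPS pools. Its change was -0.30 ± 0.16 with an adjusted p of 0.333 in the edgeR fit, and at 4 h it had 130.4, 133 and 145 CPM with PBS and 115, 129.5 and 122 with LPS. On CPM all 6 LPS pools were again below all 6 PBS pools, at 4 h by 129.49 in LPS replicate 2 against 130.38 in PBS replicate 1. That gap is below the gene's counting SD of 0.021 (log2), so the order at 4 h is not resolved. The fitted change at 4 h was 0.04 ± 0.16, of the opposite sign to the one on CPM.

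For the members of lowest SD the fit's standard errors were wider than their own scatter. For TRINITY_DN1461_c0_g1 the fit gave an SE of 0.16 at 24 h, while the SD over all 12 libraries was 0.074. For TRINITY_DN12117_c0_g1 and TRINITY_DN5393_c0_g1, at the ends of the fitted changes, the SE was 0.16 and the SD over all 12 libraries 0.17. That SD holds the differences between groups, which made up 69.2% and 72.4% of their variance, so their scatter within groups was smaller. An SE of a difference of group means is also a different measure from an SD over libraries. The SE here is the size of the fitted change divided by the square root of the test's F value. The test estimates each gene's spread partly from the trend over all genes, and it scaled libraries by TMM factors, which the rule did not use. The median biological coefficient of variation in the fit was 0.195 for members, 0.239 for the 3180 genes and 0.301 for all genes tested. The fit's failure to call a member does not show that its change was 0.

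The choice of scaling decided on which side of 0 the members lay at 4 h. A library factor was taken from the members as the median over them of a library's log2 CPM minus each gene's mean, put back on a linear scale. These factors ran from 0.957 in PBS 24 h replicate 1 to 1.08 in LPS 24 h replicate 3, a range of 1.13 times, which the choice on CPM holds near 1. Factors from genes chosen without the library they scale ran from 0.944 to 1.11, a range of 1.17 times. TMM factors over all genes ran from 0.807 in LPS 4 h replicate 3 to 1.20 in PBS 24 h replicate 2, a range of 1.49 times, and median-ratio factors, which DESeq2 uses, had a range of 1.51 times. The methods differed most in LPS 4 h replicate 3. There the members gave 0.964, the genes chosen without it 0.952, TMM 0.807 and the median ratio 0.792. In the other direction, in PBS 24 h replicate 2, the members gave 1.06 and TMM 1.20.

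A factor free of the library total was also taken, from the 200 genes with the lowest mean SD of the log2 ratio to every other of the 3180 genes. Of these genes, 130 were members. Their factors ran from 0.907 in PBS 24 h replicate 3 to 1.14 in LPS 24 h replicate 3. That range of 1.25 times was between the members' and the TMM range. The factors of single libraries could lie outside both methods. In PBS 24 h replicate 3 the members gave 0.966 and TMM 0.947, and in LPS 24 h replicate 3 they gave 1.08 and 1.09. Group means of the members' factor were 1.00 ± 0.046 at PBS 4 h and 0.988 ± 0.029 at LPS 4 h. Those of the TMM factor were 1.05 ± 0.011 and 0.930 ± 0.126. At 24 h the members' factors averaged 0.994 ± 0.056 with PBS and 1.02 ± 0.052 with LPS, and the TMM factors 1.03 ± 0.144 and 1.00 ± 0.086 (mean ± SD, n = 3). The spread among the 3 LPS 4 h pools in TMM was larger than the difference between the group means.

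**Figure D4:**
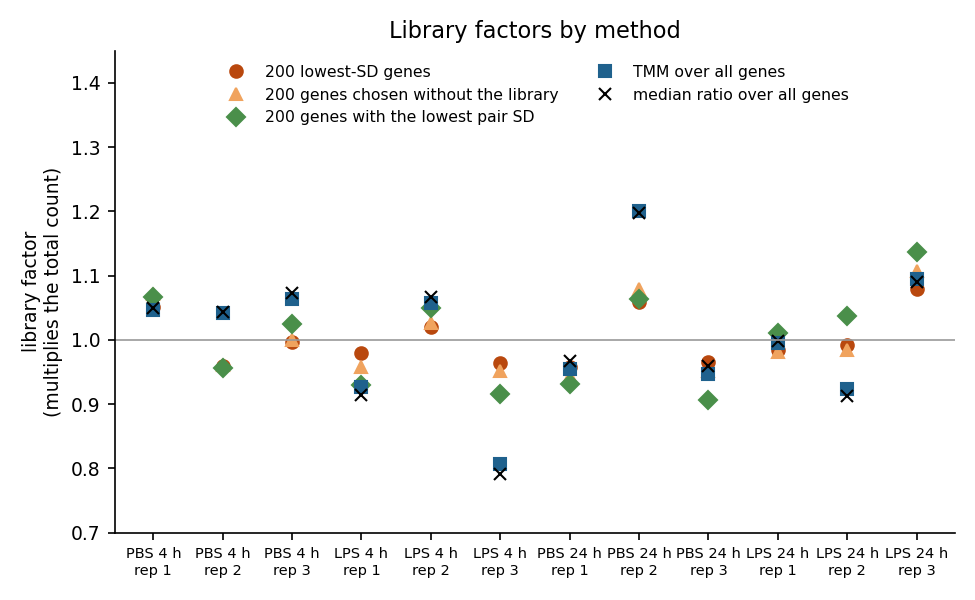
Library factors, which multiply the total count, in each of the 12 pools by 5 methods. The 3 gene-set methods stay between 0.907 and 1.14, whereas TMM and the median ratio fall to 0.807 and 0.792 in LPS 4 h replicate 3 and rise to 1.20 in PBS 24 h replicate 2.

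With TMM scaling the members' fitted LPS changes at 4 h had a median of 0.18 (log2), 179 of 200 were positive, and the median of all genes tested was -0.01. With library totals alone the members' median was -0.02, 87 were positive, and the median of all genes was -0.19. With factors from the members these medians were 0.01 and -0.18, and with factors from genes chosen without the library scored they were 0.03 and -0.15. The members' own factors are medians over these same genes, so the value of 0.01 was held near 0 in advance. A library factor shifts all genes alike, so the distance between the members' median and that of all genes, 0.17 to 0.20 at 4 h over 6 scalings, could hardly change with the scaling. That distance also restates the rule, which took genes with little change on CPM. At 24 h the members' median was 0.07 with TMM and 0.05 with totals. The TMM median rested on single pools, since it was 0.001 without PBS 24 h replicate 2, 0.01 without LPS 24 h replicate 2, 0.13 without PBS 24 h replicate 1 and 0.14 without LPS 24 h replicate 1. These data hold no spike-in or other outside standard that could say which scale is right.

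The pool that stood apart at 4 h decided how much this mattered. Without LPS 4 h replicate 2, edgeR called 7454 of 33524 genes at 4 h (22.2%), 3711 higher and 3743 lower, where it had called 1 with the pool. Among them were 11 members, all higher (background 11.1% of genes higher), with log2 changes of 0.48 to 0.64 and adjusted p-values of 0.0081 to 0.043 by edgeR's quasi-likelihood test. The fits without this pool hold only 2 LPS 4 h pools. The pool was singled out from these same counts, so calls made without it can be too many and their adjusted p-values too low. With library totals alone and the same pool left out, 8343 genes were called (24.9%), 2273 higher and 6070 lower, and 0 members. The same 11 genes then had log2 changes of 0.19 to 0.34. With factors from the members 8678 genes were called (25.9%), 2604 higher and 6074 lower, and 1 member. Nothing is read from the members' counts here, since these libraries chose them. The split of all calls, from 3711 and 3743 to 2604 and 6074, was set by the scaling. Without that pool 7 members were called for any difference (background 29.8%) and 0 at 24 h (6.14%).

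The members were a different set under another scaling. When the rule was applied to TMM-scaled CPM, 90 of the 200 were chosen again, and 86 with median-ratio scaling. On TMM-scaled CPM the members' own SDs ran from 0.070 to 0.297 with a median of 0.180. With the median absolute deviation in place of the SD 95 were chosen again, and with the SD within groups 128. Leaving out any 1 library kept 159 to 193 of them. In all, 28 members stayed among the 200 under all 21 of the scalings, pseudocounts, spread measures, level minimum of 20 and left-out libraries tried. Of the 5 lowest-SD genes, TRINITY_DN1461_c0_g1, TRINITY_DN3265_c0_g1 and TRINITY_DN373_c0_g1 were among those 28.

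On the members, LPS 4 h replicate 2 lay only slightly farther from the other pools of its group than these lay from each other. The SD of the log2 ratio over the 200 members was 0.19 between LPS 4 h replicates 1 and 2, 0.21 between replicates 2 and 3, and 0.19 between replicates 1 and 3. Over all 66 pairs of libraries the members gave 0.14 to 0.27, with a median of 0.20, and the 3180 genes gave 0.42 to 1.28, with a median of 0.79. The narrow range among members follows from the rule.

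The sum over isoforms was what the rule held level, so the split of that sum among isoforms could be tested. Several isoforms were assembled for 83 members (41.5%), against 33.4% of the 3180 genes, and 5 or more for 34 (17%), against 12.5%. In 63 of the 83 the same isoform led in all 12 libraries, and in 20 the lead changed. The leading isoform held a median of 82.7% of its gene's counts, and its own SD was above that of the gene in 64 of the 83 and at least 2 times as large in 12. The leading isoform's SD was above that of the gene in 77.1% of these members and in 69.1% of the 1062 genes with several isoforms and the same level minimum. The rule had chosen the members for a low SD of the sum, so nothing is read from the difference. Isoform counts are estimates that divide reads shared by similar sequences, and they are uncertain where isoforms are alike.

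By edgeR's test of isoform use with Benjamini-Hochberg adjustment over 3872 genes, LPS and PBS differed at 4 h in 20 genes (0.517%), of which 2 were among the 83 members, and at 24 h in 48 genes (1.24%), of which 0 were members. The limma version of the test called 7 genes at 4 h (0.181%), 1 a member, and 34 at 24 h (0.878%), 1 a member. The 3872 genes include genes below the members' level minimum. These shares are therefore not matched for level, and nothing is read from the members' counts beside them. The edgeR counts moved with single pools, from 3 at 4 h without LPS 4 h replicate 1 to 135 without LPS 4 h replicate 2, and from 11 at 24 h without LPS 24 h replicate 3 to 61 without LPS 4 h replicate 2. On simulated counts the edgeR version called more unchanged genes than its threshold allows, so the limma value stands beside each call.

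TRINITY_DN30829_c0_g1, at rank 136 with 2 isoforms, was the member called by both tests at 4 h. Its isoform i1 held 61.7%, 63.8% and 59.7% of the gene's counts in the PBS 4 h pools and 35.9%, 46.2% and 20.7% in the LPS 4 h pools. At 24 h it held 57.1%, 70.1% and 64.6% with PBS and 44.9%, 52.9% and 49.6% with LPS. All 6 LPS pools were below all 6 PBS pools, and LPS 4 h replicate 2 was the highest of the LPS 4 h pools. The counts of the whole gene were 209, 193 and 218 CPM at PBS 4 h and 169, 201.1 and 176 at LPS 4 h. They were 197, 260 and 178 CPM at PBS 24 h and 183, 207 and 208 at LPS 24 h, and the treatments overlapped at both times. Isoform i1 alone ran from 113 to 182 CPM in PBS pools and from 36.6 to 110 CPM in LPS pools, and isoform i2 from 62.9 to 88.0 and from 97.7 to 140 CPM. On CPM, i1 was lower and i2 higher in every LPS pool than in any PBS pool, while the sum of both overlapped between treatments.

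The adjusted p of TRINITY_DN30829_c0_g1 at 4 h was 0.041 by edgeR and 0.048 by limma, and it was 0.0019 by edgeR without LPS 4 h replicate 2. The call was near the threshold, and leaving out any of 10 of the 12 pools ended it, with adjusted p-values of up to 0.171. At 24 h its adjusted p was 0.368 by edgeR, and whether the effect differed between the times was not tested. Such a separation of the leading isoform's share between all LPS and all PBS pools was found in 1 of the 83 members (1.20%) and in 20 of the 1062 genes with several isoforms and a mean CPM of at least 50 (1.88%), a share of members near that background.

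**Figure D5:**
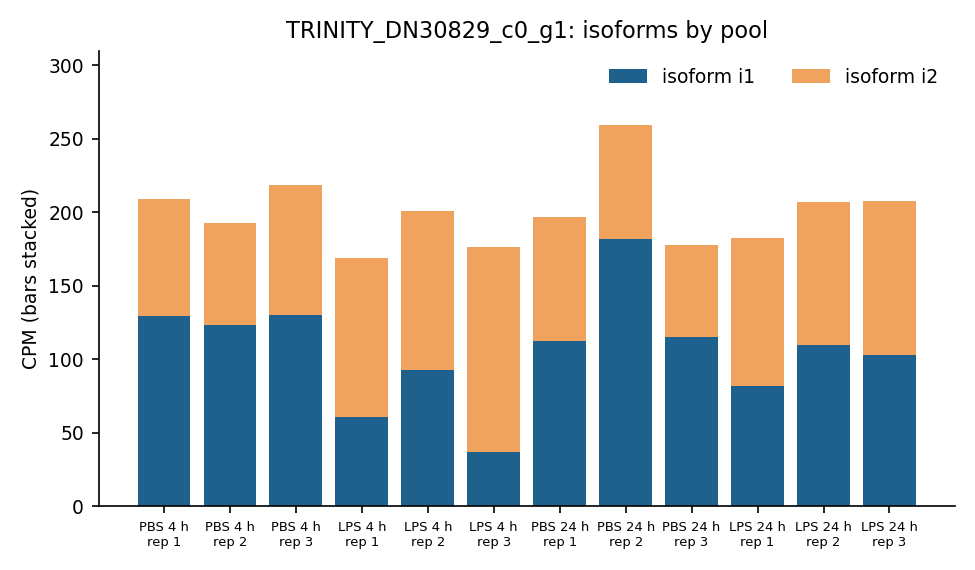
CPM of the isoforms i1 (blue) and i2 (orange) of TRINITY_DN30829_c0_g1 in each of the 12 pools, stacked so that the bar height is the gene's CPM, on an axis from 0. The bar heights of LPS and PBS pools overlap, while the blue portion is smaller in every LPS pool (36.6 to 110 CPM) than in any PBS pool (113 to 182 CPM). The rule chose genes whose sums vary little, so similar bar heights follow from the choice.

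TRINITY_DN3602_c0_g3, at rank 26 with 6 isoforms, was called at 4 h by edgeR with an adjusted p of 0.035 and not by limma, with 0.881. Its isoform i4, the one whose mean share differed most at 4 h, held 26.9%, 20.5% and 25.3% of the gene's counts in the PBS 4 h pools and 6.72%, 20.4% and 13.3% in the LPS 4 h pools. On i4, LPS 4 h replicate 2 was close to the PBS pools. Isoform i3 held 8.41%, 7.71% and 6.70% with PBS at 4 h and 2.86%, 4.26% and 5.10% with LPS, without overlap. Isoform i2 held 10.8% and 11.1% in LPS 4 h replicates 1 and 3, 0.22% in replicate 2 and at most 0.643% in PBS 4 h pools. The share of i1 was higher in every LPS 4 h pool than in any PBS 4 h pool, and those of i5 and i6 overlapped. Leaving out any of 7 of the 12 pools ended the call, with adjusted p-values of up to 0.227 by edgeR. At 24 h the member with the lowest p, TRINITY_DN1016_c0_g1, had an adjusted p of 0.210 by edgeR and 0.733 by limma. Without PBS 24 h replicate 1 its adjusted p was 0.0091 by edgeR, and without any other pool it was not called, with values of up to 0.494. Its leading isoform held 99.4% to 99.9% of the counts in every pool, so its other isoforms were minor ones. With all pools no difference among its isoforms was established. The member that limma called at 24 h was TRINITY_DN23967_c0_g1, with an adjusted p of 0.042 by limma and 0.699 by edgeR. Its isoform i3 held 9.38%, 18.3% and 12.3% of the gene's counts in the PBS 24 h pools and 11.2%, 0% and 1.09% in the LPS 24 h pools, so the groups overlapped in 1 pool. These shares rest on 148, 266 and 216 counts with PBS and on 211, 0 and 37 with LPS. The count of 0 among 2363 counts of the gene allows a share of up to 0.127%, by 3 counts and for counting error only.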

How the data were processed

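RNA from 12 pooled spleen samples was sequenced from a strand-keeping library preparation, per the labels' protocols. The authors deposited estimated counts per assembled transcript as whole numbers, for 58975 transcripts in each of the 12 libraries. Among the tools in the submitters' processing notes are RSEM, Bowtie2, Trimmomatic 0.39, DESeq2 and FastQC. What each was used for, how the assembly was made and whether counting used strand are not stated in the labels. Isoform counts from such tools divide shared reads by a model, so counts summed per gene rest on fewer assumptions than the isoforms do.

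From the deposited counts, gene sums and CPM were computed, and the 200 members were chosen as the report states. The members and lists were chosen with earlier results of these data known. Differences between groups were tested in R 4.3.3 by edgeR 4.0.16 (quasi-likelihood with robust estimation, TMM scaling, its expression filter, 1 mean per group over 12 libraries, two-sided, Benjamini-Hochberg adjusted over all genes tested, called at an adjusted p below 0.05). Isoform use was tested with edgeR's diffSpliceDGE on the same model and with limma 3.58.1. Both scripts were tested on simulated data. DESeq2 1.42.0, other scalings and filters, a replicate block and leaving out each pool were alternatives.

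The genes named are the 5 with the lowest SD, the 2 with the highest and the 2 with the lowest mean CPM, the ranks beside the threshold, the ends of the fitted LPS changes, and the members with isoform-use calls, or else the one with the lowest p. TRINITY_DN9589_c0_g1, TRINITY_DN141_c2_g1 and TRINITY_DN1395_c0_g1 were named after their values were seen. Totals of 29614365 to 56556752 counts left counting error far below the spread between pools. No 2 libraries agreed within sampling noise, with a chi-square per degree of freedom of at least 30.4 in all 66 pairs.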

Additional observations from a re-analysis of the deposited data

How the results depend on the processing

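In each setting 200 genes were chosen anew, so the median SDs that follow belong to different sets. The median of 0.153 became 0.147 on TMM-scaled, 0.149 on median-ratio-scaled and 0.146 on upper-quartile-scaled CPM. The members themselves had a median of 0.180 on TMM-scaled CPM. For sets chosen anew it was 0.145 with a pseudocount of 5, and 0.129 and 0.199 with level minimums of 20 and 100. It was 0.077 by the median absolute deviation, 0.130 within groups and 0.160 for single transcripts. In the PBS and LPS libraries alone it was 0.107 and 0.123. It was 0.148 with totals that leave out the 10 most counted genes, and 0.145 to 0.155 with 1 library left out. Of the 200 members, 90, 86 and 98 were chosen again under those 3 scalings, 89 and 83 under those minimums, 95 by the median absolute deviation, 128 within groups, 80 and 116 in the PBS and LPS libraries alone, 130 by pair SD and 159 to 193 with 1 library left out. The range of library factors, 1.13 times for the members, was 1.17 for genes chosen without the library scored, 1.15 and 1.18 for the 10 and 3 lowest-SD members, 1.49 for TMM, 1.51 for the median ratio, 1.43 for the upper quartile, 1.26 for all genes of the level minimum, 1.25 for the lowest pair SD and 1.11 to 1.13 with 1 library left out. Held-out spread was 0.131 on TMM-scaled CPM and 0.159 without LPS 4 h replicate 2.

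Gene calls at 4 h, 1 in the reported fit, were 2321 by DESeq2, 0 by limma-voom and 0 to 7454 with 1 pool left out. At 24 h, 1059 calls became 2717 by DESeq2, 669 with totals and 29 to 2059 with 1 pool left out. For any difference, 2888 became 7055, 1195 by limma-voom, 1778 with totals and 899 to 9995. For the difference of LPS effects, 5 became 1035 by DESeq2, 3 with upper-quartile scaling, totals, member factors or a CPM filter, 2 with factors from genes chosen without the library scored, and 0 to 5433. Without LPS 4 h replicate 2, member factors gave 8678, 2119, 10689 and 6114 calls in these 4 comparisons, and totals gave 8343, 1771, 10109 and 5888. Members called were 1 by DESeq2 at 4 h and for any difference, 1 and 1 with member factors without that pool, and 0 to 11 at 4 h, 0 to 0 at 24 h and 0 to 7 for any difference with 1 pool left out.

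Isoform-use calls at 4 h, 20, became 7 by limma, 9 by the Simes method and 3 to 135 with 1 pool left out, with 1, 0 and 0 to 3 members. At 24 h, 48 became 34, 11 and 11 to 61, with 1, 0 and 0 to 2 members. The cause of these changes was not tested beyond the pool that each leaves out. With the replicate number as a block, gene calls were 0, 473, 748 and 0 and isoform calls 8 and 20, with 0 members in each. Same-numbered pools of different groups had correlations of -0.50 to 0.14, and pools of different numbers had -0.43 to 0.51. These values gave no sign of pairing by number. They cannot settle whether pools of the same number shared handling. The median fitted change of the members moved in 12 settings at 4 h, where its sign turned with totals, and in 8 at 24 h. Counting error was small beside the spread among libraries, and what limited precision with 3 pools per group was not tested.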

Other observations

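Pairs of members leaned to positive correlations, with few strong ones. Over the 12 libraries the 19900 pairs of members had a median Pearson correlation of log2 CPM of 0.14, with quartiles of -0.14 and 0.40, and 225 pairs (1.13%) were above 0.8 and 20 (0.101%) below -0.8. Over the 5054610 pairs of the 3180 genes the median was 0.06, with quartiles of -0.32 and 0.44, and 4.82% were above 0.8 and 1.98% below -0.8. The 12 points of each pair share the library totals and the depth, so these values are a description. Differences between the times were of the same order as those between treatments. From 4 h to 24 h the members' mean log2 CPM differed by a median size of 0.08 in PBS pools and 0.11 in LPS pools, against 0.18 and 0.42 over the 3180 genes.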
